A study of Mus musculus with 53 samples.

Results

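The 10 antioxidant defence genes described here were Nfe2l2, Nqo1, Hmox1, Gclc, Gclm, Txnrd1, Srxn1, Sod1, Sod2 and Cat. They were chosen by symbol, and all 10 were present among the 12372 genes of the count table, which holds only genes that passed the authors' filter on low expression. RNA sequencing was performed on 53 libraries from brainstem, cerebellum, cortex and striatum of 14 male mice, with 1 library per mouse and region, and the question asked of these genes is how their RNA levels differ between regions and between SCA3 and wild-type mice within each region. The SCA3 mice were MJD84.2 hemizygotes, a model of spinocerebellar ataxia type 3 whose transgene is the whole human ATXN3 locus with its CAG repeat expanded, driven by the human promoter throughout the body and present beside the mouse gene. The wild-type mice were C57BL/6 animals. All mice had been left untreated, had gone through the same motor tests and had aged naturally to 17.5 months, or 74 to 77 weeks. The paper also reports repeated blood sampling by tail cut, with fasting before plasma sampling in some mice of each genotype. It reports a lower body weight in the SCA3 mice, and the part of body weight in the values was not tested. There were 8 wild-type and 6 SCA3 libraries of brainstem, 7 and 6 of cerebellum, 7 and 6 of cortex, and 8 and 5 of striatum. The human transgene was not analysed here, so the genotype labels were not checked against its level.

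Superoxide and hydrogen peroxide arise as by-products of respiration, and the products of these genes keep both in check. The transcription factor NRF2, encoded by Nfe2l2, is held in the cytoplasm and targeted for degradation by KEAP1, and electrophiles or oxidants release it to bind the antioxidant response element, a short DNA motif near its target genes. Nqo1, Hmox1, Gclc, Gclm, Txnrd1 and Srxn1 are textbook NRF2 targets, whereas Sod1, Sod2 and Cat encode the enzymes that act on superoxide and hydrogen peroxide directly. In brain, astrocytes are known for a stronger NRF2 response than neurons.

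To show what the element looks like near these genes, the promoter windows of RefSeq on GRCm38.p6, which run from 250 bases before to 50 bases after a gene's start, were searched on both strands for its core TGACNNNGC. A window was available for 8 of the 10 genes, all but Hmox1 and Gclc, and 5 of those 8 genes held at least 1 match. Each match is printed with 10 bases on either side, 5′ to 3′ on the strand of the gene, with the 9 bases of the core in capitals. The core lies on the gene's own strand for Nfe2l2 and on the opposite strand for the other 4, where it reads as its reverse complement.
Nfe2l2: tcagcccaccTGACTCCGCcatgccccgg
Gclm: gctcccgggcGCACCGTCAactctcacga
Txnrd1: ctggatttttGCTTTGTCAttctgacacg
Srxn1: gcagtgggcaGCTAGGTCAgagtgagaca
Sod1: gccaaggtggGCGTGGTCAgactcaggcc

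These stretches lie at chr2:75704885-75704913 (minus strand) for Nfe2l2, chr3:122245413-122245441 for Gclm, chr10:82859104-82859132 for Txnrd1, chr2:152105542-152105570 for Srxn1 and chr16:90220696-90220724 for Sod1, the last 4 on the plus strand. Counted from the start site on which the RefSeq window is placed, the first base of the core was at position -240 in Nfe2l2, -134 in Gclm, -92 in Txnrd1 (in 1 of its 3 windows), 29 in Srxn1 and -56 in Sod1. That site is the outer end of the gene's RefSeq span for Nfe2l2, Srxn1 and Sod1, but lies inside the span for Gclm (122245557) and Txnrd1 (82859206). Among the 9474 genes of the count table with a window, 17.1% held the core, against 62.5% of the 8 members with a window. Per window, the core was present in 5 of 10 member windows (50%) and in 14.1% of the 12279 windows of genes in the table. A match to these letters is a description of the sequence and no evidence of binding, and the windows of Nqo1, Sod2 and Cat held no match within their 300 bases.

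The libraries held between 31.7 and 76.7 M counts each (M stands for 1000000), and no member had fewer than 107 counts in any library, so counting error was small for all of them. RNA integrity numbers were between 5.7 and 9.0, and in brainstem they were 6.3 to 7.6 in wild-type and 7.4 to 8.0 in SCA3 libraries. With this number as a covariate, 1.43% of all genes were called between genotypes in brainstem, against 1.92% without it. The marker genes of striatum, cerebellum, cortex and brainstem were highest in the region of their name for 9 of 9, 5 of 5, 4 of 5 and 1 of 2 measured genes. Some libraries stood apart in a score made of 10 thalamic marker genes (mean log2 CPM, counts per 1000000 counts of the library). The wild-type striatal libraries of mice 7267058 and 7267059 scored 6.87 and 7.18, against at most 5.37 in the other striatal libraries of either genotype. In brainstem, the libraries of wild-type mouse 7267055 and SCA3 mice 9083514 and 9083515 scored at least 6.04, against at most 5.56 in the others. Values without these libraries are given beside the results that they change. Mouse numbers fall into series by their leading digits. The largest series held wild-type mice 9083371, 9083372, 9083373 and 9083375 and SCA3 mice 9083513, 9083514 and 9083515. Of these SCA3 mice, only 9083514 and 9083515 had a striatal library.

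Per length of the gene's exons, the levels of the 10 genes spanned a wide range. In wild-type brainstem, Sod1 reached a mean of 225 CPM per kb, above Srxn1 at 41.7 and Sod2 at 29.4 CPM per kb, with Cat between those. Gclc (21.9), Txnrd1 (21.7) and Nfe2l2 (13.6) were intermediate, and Gclm (9.50), Nqo1 (6.10) and Hmox1 (4.58) were the lowest. Sod1 was the most abundant of these transcripts per length in each of the 4 wild-type regions, and the scarcest was Hmox1 in brainstem, cerebellum and striatum and Nqo1 in cortex (3.03 CPM per kb). Lengths were those of the GENCODE annotation, while reads were counted per RefSeq gene. The GENCODE gene ends further on for Sod2 (13040063 against 13018119) and Gclm (122270732 against 122267215), so their values per kb may be too low. Without the length, Sod2 had 172 CPM in wild-type brainstem, Sod1 144 and Srxn1 117.

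**Figure D1:**
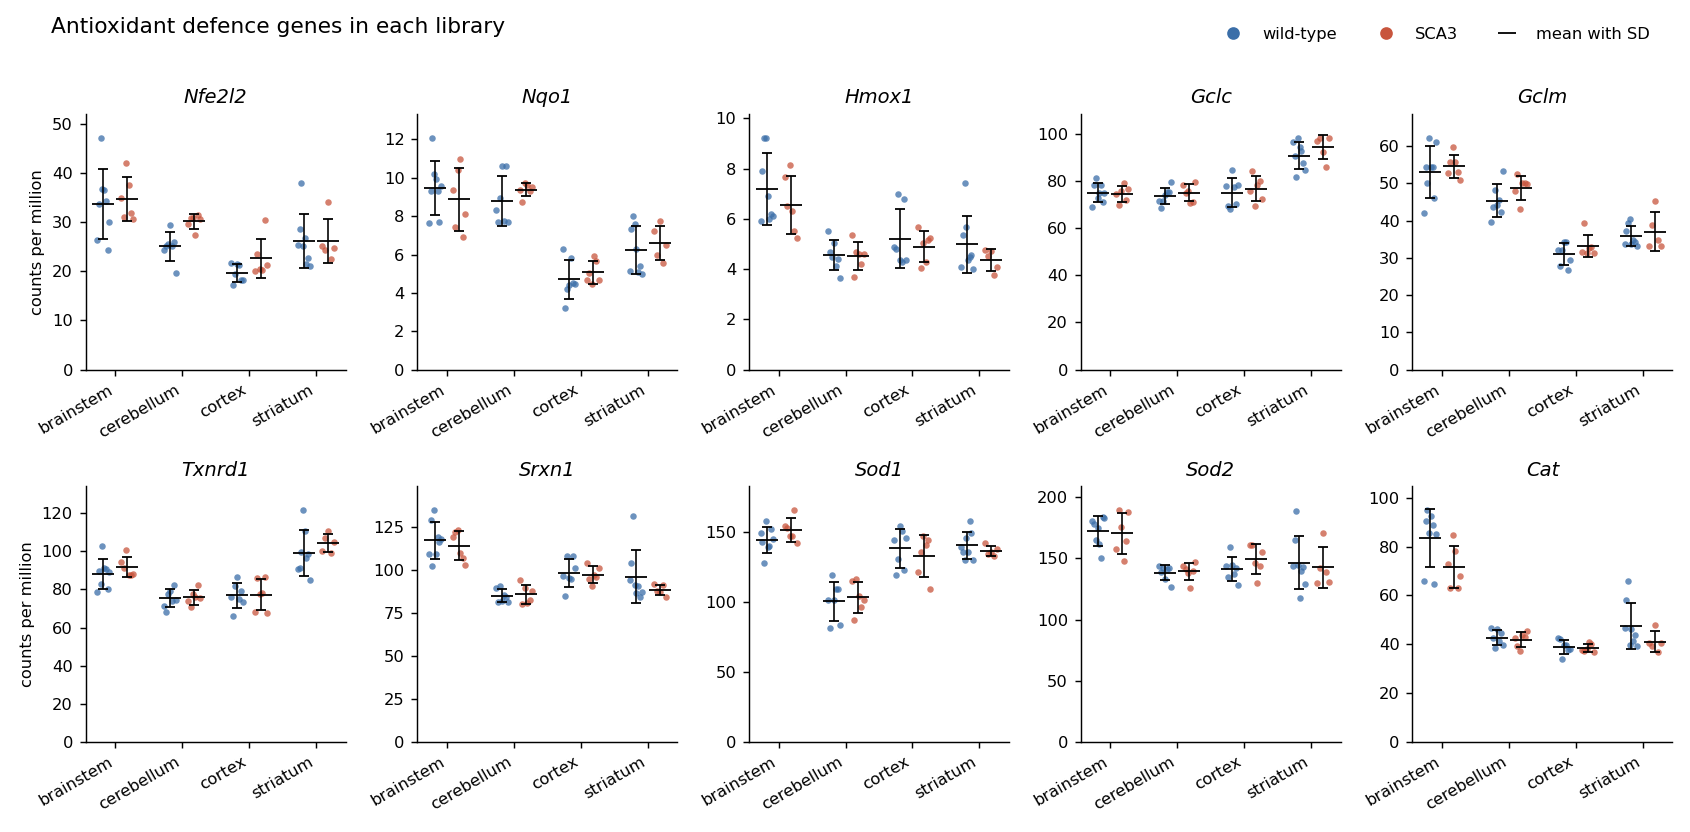
CPM (linear axis from 0) of the 10 genes in each of the 53 libraries, by region, with wild-type in blue and SCA3 in red; the black bar is the mean and the whisker 1 SD. Regions differ more than genotypes, with Cat near 83.5 CPM in wild-type brainstem and 39.0 CPM in wild-type cortex.

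Between regions of the wild-type mice, brainstem held the highest level of 8 of the 10 genes, and striatum that of Gclc and Txnrd1. Of 60 tests (10 genes in 6 pairs of regions), 42 were called at a false discovery rate (FDR) below 0.05 by edgeR's likelihood ratio test, adjusted over all genes. Many genes differed between regions, so these counts have to be read against all genes tested: 72.6% of all genes differed between cerebellum and brainstem, 65.4% between cortex and brainstem, 64.2% between striatum and brainstem, 69.7% between cortex and cerebellum, 69.5% between striatum and cerebellum and 34.4% between striatum and cortex. In direction the members leaned towards brainstem. They were lower than in brainstem for 8 of 10 genes in cerebellum (37.6% of all genes), for 8 of 10 in cortex (31.1%) and for 7 of 10 in striatum (31.5%), and higher than in brainstem for 0 (35.0% of all genes), 0 (34.3%) and 2 (32.7%). In the largest series of mouse numbers alone, 7, 7 and 7 were lower and 0, 0 and 1 higher. There 65.3%, 54% and 57.7% of all genes differed from brainstem. Nfe2l2, Hmox1, Gclm, Srxn1, Sod2 and Cat, 6 of the 10, were called higher in brainstem than in each other region, as were 14.6% of all genes. In a bulk sample, a lower level from fewer cells of a type and from less RNA per cell cannot be told apart, and this holds for every comparison given here.

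Nfe2l2 (chromosome 2, 75675513 to 75704663, minus strand), the regulator of the group, ranged in wild-type brainstem from 24.4 to 47.2 CPM with a median of 33.9. Its lowest, median and highest values were 21.1, 25.3 and 37.9 CPM in striatum, 19.7, 25.1 and 29.5 in cerebellum and 17.2, 19.4 and 21.7 in cortex. Brainstem and cortex did not overlap, whereas brainstem overlapped with the other regions. The order was brainstem, striatum, cerebellum, cortex, and only striatum and cerebellum were neighbours without a called difference (log2 difference 0.06, SE 0.12, FDR = 0.65 by edgeR). Without the striatal and brainstem libraries of high thalamic score that difference was -0.07 (FDR = 0.55), which puts cerebellum before striatum, and striatum lay further below brainstem (-0.54, against -0.36 with them).

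Among the NRF2 targets for quinones and haem, Nqo1 (chromosome 8, 107388225 to 107403205), which reduces quinones with a pair of electrons, was 2.01-fold higher in brainstem (9.47 ± 1.42 CPM, SD, n = 8) than in cortex (4.70 ± 1.04, n = 7). Its level in cerebellum (8.80 ± 1.30, n = 7) did not differ from brainstem beyond the spread (log2 difference -0.10, 95% interval -0.34 to 0.13). Nqo1 in striatum (6.22 ± 1.26, n = 8) lay below both and above cortex. Hmox1 (chromosome 8, 75093618 to 75100593), the inducible haem oxygenase, had 7.19 ± 1.42 CPM in brainstem and between 4.56 and 5.21 CPM on average in the other regions, among which no pair was called.

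The enzyme that makes the first bond of glutathione has a catalytic subunit, GCLC, and a modifier subunit, GCLM, and their genes had different regional patterns. Gclc (chromosome 9, 77754535 to 77794489) was highest in striatum at 90.8 ± 5.89 CPM (n = 8), and its means of 73.7 to 75.1 CPM in the other 3 regions were not called different from each other. Gclm (chromosome 3, 122245487 to 122267215) was highest in brainstem at 53.1 ± 6.95 CPM and fell through cerebellum (45.3 ± 4.48) and striatum (35.9 ± 2.79) to cortex (30.9 ± 2.95), with a called difference at each step, the last of which (FDR = 0.019) missed the threshold under some alternatives given with the comparison of striatum and cortex. The range between highest and lowest region was 1.72-fold for Gclm and 1.23-fold for Gclc, and only 19.3% of all genes had a smaller range than Gclc.

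Txnrd1 (chromosome 10, 82833951 to 82897724), the cytosolic thioredoxin reductase, was also highest in striatum, with 99.3 ± 12.0 CPM against 88.3 ± 7.94 in brainstem (log2 difference 0.17, SE 0.06, FDR = 0.013 by edgeR) and 75.3 to 76.9 CPM on average in cerebellum and cortex. In the largest series of mouse numbers alone, 1 member was called higher in striatum than in brainstem, against 2 (Gclc and Txnrd1) in the main fit. Srxn1 (chromosome 2, 152105524 to 152111376), which encodes sulfiredoxin, the enzyme that restores overoxidised peroxiredoxins, was highest in brainstem (117 ± 10.7 CPM) and lowest in cerebellum (84.8 ± 3.80). Cortex (98.2 ± 8.31) and striatum (96.0 ± 15.5) lay between them and were not called different from each other. Without the 2 striatal libraries of high thalamic score, which held the 2 highest striatal values of Srxn1 (104 and 131 CPM against 84.0 to 94.0), striatum was called lower than cortex (log2 difference -0.15, FDR = 0.033) and no longer higher than cerebellum (0.07, FDR = 0.28). Leaving out mouse 7267059 alone also ended the call against cerebellum (FDR = 0.15).

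The superoxide dismutases differed in pattern as well. Sod1 (chromosome 16, 90220762 to 90226333), the copper and zinc enzyme of the cytosol, was low in cerebellum at 100 ± 13.8 CPM (n = 7), and its means of 138 to 144 CPM in the other 3 regions were not called different. Cerebellum was 1.44-fold below brainstem. Sod2 (chromosome 17, 13007839 to 13018119), the manganese enzyme of mitochondria, was instead high in brainstem at 172 ± 12.0 CPM, with means of 138 to 147 CPM elsewhere and no call among those 3 regions. Its striatal values were 165 and 189 CPM in the 2 libraries of high thalamic score and 118 to 145 CPM in the other 6, and without the high-score libraries its log2 difference of striatum from brainstem was -0.33, against -0.23 with them.

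Cat (chromosome 2, 103453904 to 103485153, minus strand) encodes catalase, which breaks down hydrogen peroxide in peroxisomes, and it varied most of the 10 genes between regions. Its values in wild-type brainstem were 64.8, 65.8, 85.1, 85.7, 88.9, 90.4, 92.5 and 95.2 CPM. In wild-type cortex they ran from 34.1 to 42.5 CPM (median 39.5), in cerebellum from 38.6 to 46.7 (median 42.5) and in striatum from 39.3 to 65.8 (median 44.9). Brainstem overlapped with neither cortex nor cerebellum, and with striatum only through the striatal library of mouse 7267059. The difference was 2.14-fold against cortex (log2 -1.10, SE 0.09, FDR = 1.9e-31), 1.96-fold against cerebellum and 1.76-fold against striatum (log2 -0.81, or -1.01 without the libraries of high thalamic score). A range of this size was exceeded by many genes, since 76.6% of all genes had a smaller one, and over the 10 members the median range was 1.51-fold, against 1.5-fold over all genes.

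**Figure D2:**
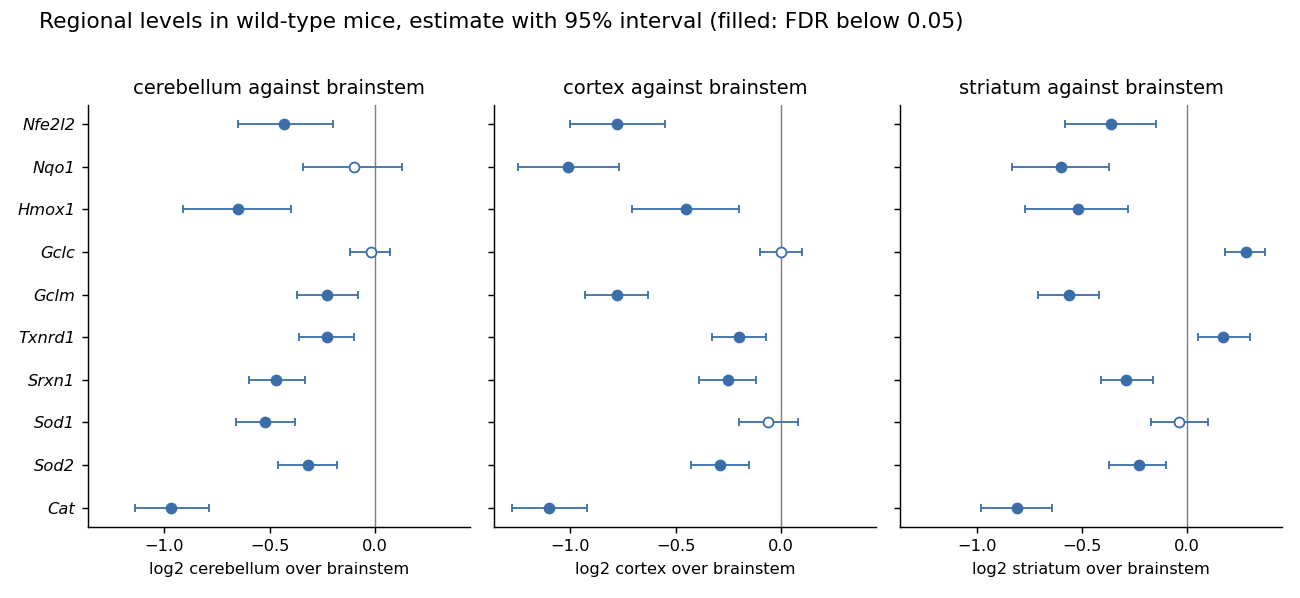
Log2 difference of each of 3 regions from brainstem in wild-type mice for the 10 genes, with 95% intervals; filled points passed an FDR of 0.05 and open points did not. Most points lie left of 0, and Gclc and Txnrd1 lie right of it in striatum.

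In striatum against cortex, 6 of 10 members were called higher in striatum and 0 lower, against 16.8% and 17.5% of all genes. The 6 were Nfe2l2, Nqo1, Gclc, Gclm, Txnrd1 and Cat. Without the striatal and brainstem libraries of high thalamic score, where 34% of all genes differed between these regions, 3 were called higher (Nfe2l2, Gclc and Txnrd1) and 1 lower (Srxn1). Nqo1, Gclm and Cat then had log2 differences of 0.29, 0.18 and 0.13 with FDR = 0.054, 0.06 and 0.16. In the largest series of mouse numbers, where 10.9% of all genes differed between these regions, 2 members were called higher (Gclc and Txnrd1) and 1 lower (Srxn1). Nqo1 also missed the threshold without mouse 7267058 (FDR = 0.073) or 9082857 (0.054), and Gclm without mouse 7267058 (0.089), 9082857 (0.055) or 9083373 (0.052). Cortex against cerebellum gave 2 members higher and 3 lower (35.5% and 34.2% of all genes), and striatum against cerebellum gave 4 higher and 2 lower (35.3% and 34.2%). Without the libraries of high thalamic score the latter gave 3 and 2, where 69.9% of all genes differed.

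Between genotypes, none of the 10 genes was called in any region. In the 40 tests of SCA3 against wild-type, 0 passed an FDR of 0.05, where the share of all genes that passed was 1.92% in brainstem, 0.0647% in cerebellum, 0.154% in cortex and 7.54% in striatum. The joint test of a genotype effect in any region called 0 of 10 (4.73% of all genes), with 1 member, Cat, at an unadjusted p below 0.05 (FDR = 0.25 by edgeR) where 16.6% of all genes were. The test of whether the effect differed between regions called 0 of 10 (0.218% of all genes), with none at that p. Every member overlapped between genotypes in every region, as all but 1.38%, 0.234%, 0.251% and 0.655% of genes did in brainstem, cerebellum, cortex and striatum. At an unadjusted p below 0.05, 3 of the 40 tests passed, which were Cat in brainstem, Cat in striatum and Nfe2l2 in cerebellum, where 13.3%, 23.2% and 1.66% of all genes did so (4.07% in cortex, where no member did). DESeq2, limma-voom without a mouse block and edgeR's quasi-likelihood test called 0 members in each region as well, with 3 of 40 at an unadjusted p below 0.05 in each of them. Limma-voom with the mouse as a block also called 0, with 2 of 40 below that p.

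The intervals bounded how far the genotypes could differ. All 40 log2 fold changes lay within 0.3 of 0, and all 40 of their 95% intervals lay within a 1.5-fold change either way, the widest reaching 1.42-fold (Nfe2l2 in cerebellum). Over the members, the median size of the log2 fold change was 0.04, 0.02, 0.06 and 0.06 in brainstem, cerebellum, cortex and striatum, beside 0.08, 0.04, 0.06 and 0.11 over all genes.

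**Figure D3:**
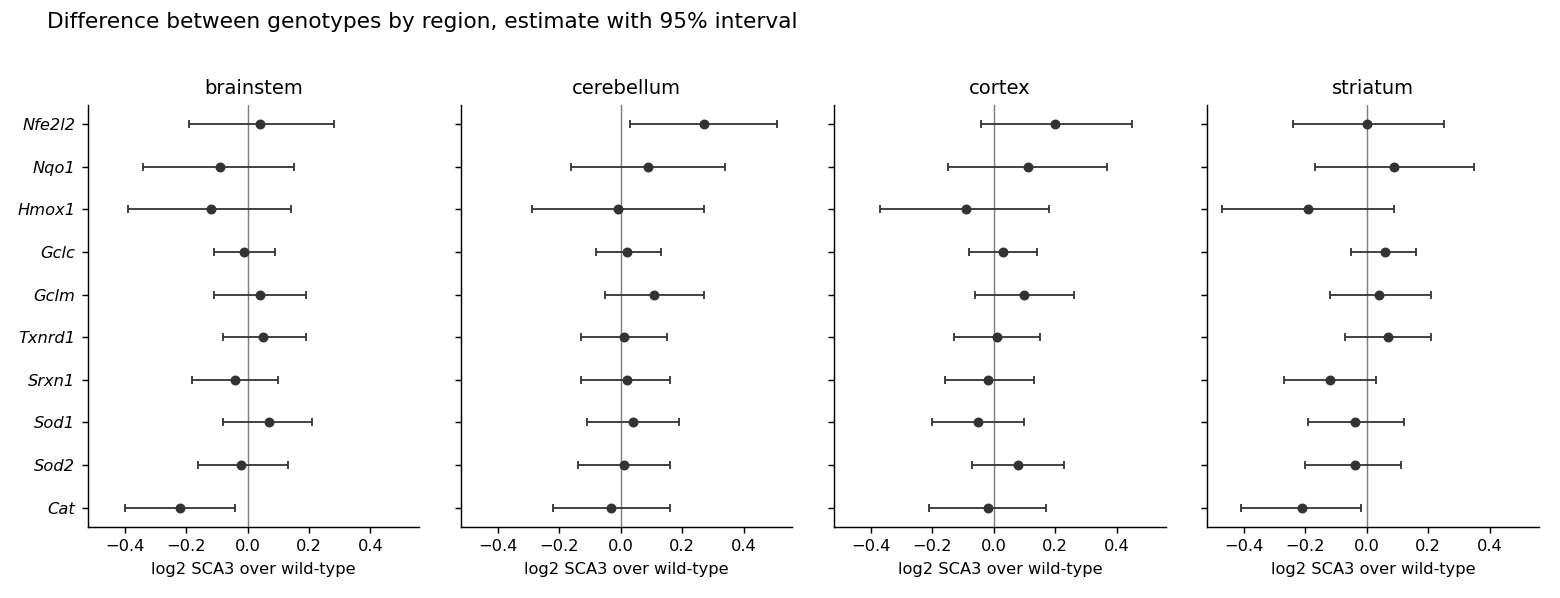
Log2 fold change of SCA3 over wild-type for the 10 genes in each of the 4 regions, with 95% intervals from the common fit. Points lie between -0.22 and 0.27, and the intervals of Cat in brainstem and striatum and of Nfe2l2 in cerebellum are the 3 that leave out 0, none of which passed an FDR of 0.05.

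For Nfe2l2, the wild-type cerebellar values were 19.7, 24.3, 25.1, 25.1, 25.6, 26.0 and 29.5 CPM, and the SCA3 values were 27.3, 29.6, 30.7, 30.8, 30.9 and 31.5 CPM. Of the 6 SCA3 libraries, 5 lay above every wild-type library and the library of mouse 9083513 lay below the highest wild-type value. The log2 fold change was 0.27 (SE 0.12, FDR = 1.0 by edgeR), and with the cerebellar libraries fitted alone it was 0.27 with FDR = 0.22. Marker genes of the choroid plexus moved in the same direction in these libraries, since all 5 measured had higher point estimates in SCA3 cerebellum (0 called, 2 at an unadjusted p below 0.05), with summed levels of 1130 to 3060 CPM (median 1830) against 147 to 3330 CPM (median 399) in wild-type. Endothelial markers went the other way in cerebellum, with 10 of 10 point estimates lower (0 called, median log2 fold change -0.20). So did 8 of 12 markers of mature oligodendrocytes (0 called, -0.26) and 8 of 12 of astrocytes (0 called, -0.06). Microglial markers were higher for 7 of 10 (0 called, 0.02). The part of these markers in the Nfe2l2 values was not tested. In cortex the log2 fold change of Nfe2l2 was 0.20 (95% interval -0.04 to 0.45), with 1 SCA3 library at 30.4 CPM above all others, which lay at 17.2 to 23.5 CPM. Without the mouse of that library, 9083514, it was 0.11. In brainstem and striatum it was 0.04 and 0.00.

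Cat had the lowest point estimate of the 10 genes in brainstem, cerebellum and striatum, but not in cortex. The SCA3 brainstem values of 63.0, 63.2, 67.8, 72.7, 78.3 and 84.9 CPM overlapped with the wild-type range of 64.8 to 95.2 CPM, with 2 values below it. The log2 fold change in brainstem was -0.22 (95% interval -0.40 to -0.04, FDR = 0.24 by edgeR), and -0.17 (FDR = 0.56) with RNA integrity as a covariate. In striatum the SCA3 values were 36.9, 39.2, 40.6, 40.6 and 48.0 CPM, and those of wild-type were 39.3, 39.5, 41.5, 43.6, 46.3, 46.6, 58.0 and 65.8 CPM. There the log2 fold change was -0.21 (95% interval -0.41 to -0.02, FDR = 0.17). In cerebellum it was -0.03 (interval -0.22 to 0.16) and in cortex -0.02 (-0.21 to 0.17).

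The striatal estimate of Cat rested on few libraries. Its 2 highest values, 58.0 and 65.8 CPM, belonged to the 2 wild-type libraries of high thalamic score, and without those the log2 fold change in striatum was -0.06 (SE 0.08, FDR = 0.8). In brainstem, where the 3 libraries of high score had 63.2, 65.8 and 67.8 CPM of Cat, it was -0.20 (SE 0.08, FDR = 0.42) without them. Srxn1, Sod2, Hmox1 and Nfe2l2 also had their highest striatal values in the wild-type library of mouse 7267059, at 131, 189, 7.41 and 37.9 CPM. Leaving out the high-score libraries moved the striatal log2 fold change of Srxn1 from -0.12 to -0.01, that of Sod2 from -0.04 to 0.06, that of Hmox1 from -0.19 to -0.05 and that of Nfe2l2 from 0.00 to 0.14.

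**Figure D4:**
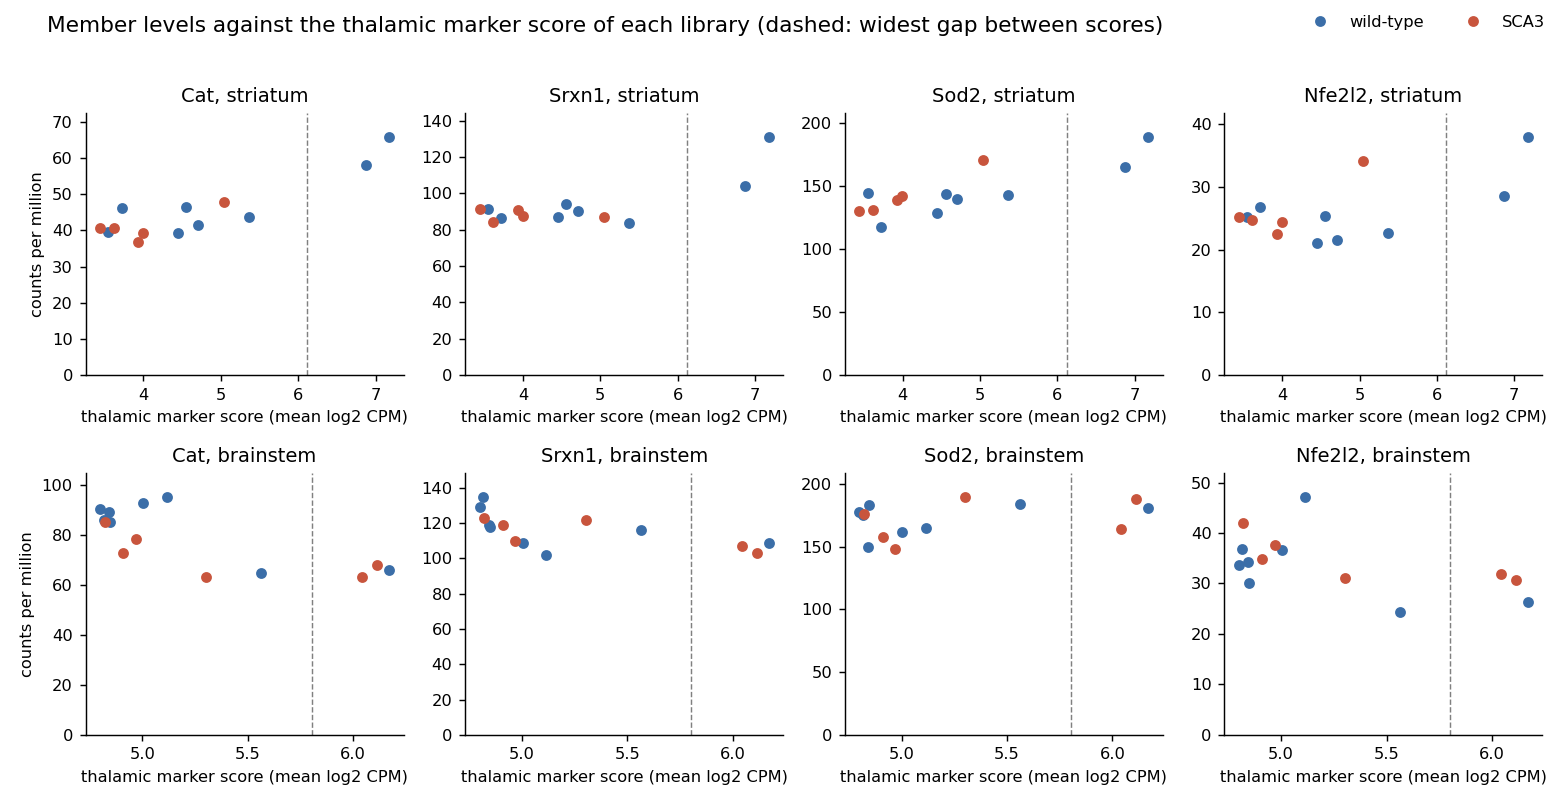
CPM (linear axis from 0) of Cat, Srxn1, Sod2 and Nfe2l2 against the thalamic marker score of each striatal (top) and brainstem (bottom) library, wild-type in blue and SCA3 in red; the dashed line marks the widest gap between neighbouring scores of the region. In striatum the 2 wild-type libraries right of the line hold the 2 highest levels of Cat, 58.0 and 65.8 CPM, and in brainstem the 3 libraries right of it have 63.2 to 67.8 CPM.

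Markers of astrocytes and mature oligodendrocytes moved in the same direction as Cat. Among 12 astrocyte markers, 11 had lower point estimates in SCA3 brainstem and 5 were called, with summed levels of 4380 to 6330 CPM (median 4980) against 4890 to 10100 CPM (median 7530) in wild-type. In striatum 11 of 12 were lower and 5 called, with 5060 to 5630 CPM (median 5210) against 4910 to 7030 (median 6250). For 12 markers of mature oligodendrocytes the sums were 9790 to 16500 against 10800 to 22400 CPM in brainstem (4 called) and 6370 to 9720 against 6920 to 20100 CPM in striatum (6 called). Microglial markers had lower point estimates for 10 of 10 in SCA3 brainstem (1 called, median log2 fold change -0.14) and 9 of 10 in striatum (0 called, -0.04), and neuronal markers for 6 of 7 in brainstem (0 called, -0.06) and 3 of 7 in striatum (1 called, 0.02). The summed markers of oligodendrocyte precursors were higher in brainstem, at 397 to 480 CPM in SCA3 against 269 to 391 CPM in wild-type. Their point estimates split there, with 3 higher and 2 lower (1 of 5 called). In striatum the sums were 303 to 353 against 261 to 388 CPM, with 2 higher and 3 lower (0 called). The part of these markers in the Cat values was not tested. In cerebellum and cortex 0 markers of astrocytes or mature oligodendrocytes were called, and between 0 and 4 of 12 had an unadjusted p below 0.05.

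The remaining members showed no lean beyond their intervals. Nqo1 had log2 fold changes of -0.09 to 0.11 and Hmox1 of -0.19 to -0.01 over the 4 regions, with SEs of 0.12 to 0.14, the largest of the set. Gclc, the steadiest gene, had -0.01 to 0.06 with SEs of 0.05 to 0.06, so that its intervals ended at -0.11 and 0.16. Gclm ran from 0.04 to 0.11, Txnrd1 from 0.01 to 0.07, Srxn1 from -0.12 to 0.02, Sod1 from -0.05 to 0.07 and Sod2 from -0.04 to 0.08. Point estimates of Nfe2l2, Gclm and Txnrd1 were above 0 and those of Hmox1 and Cat below 0 in all 4 regions, but the regions came from the same mice.

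Within groups, some of the genes varied together from library to library. Pearson correlations were taken over the deviations of log2 CPM from the mean of each region and genotype group, in 53 libraries that share 14 mice, and are given as descriptions. Over the 45 pairs of members the median r was 0.26, and 6 pairs were above 0.5, or 3 without the libraries of high thalamic score (median 0.23). Nfe2l2 with Cat had r = 0.74 (0.63 in the 48 libraries without high thalamic score), Nfe2l2 with Nqo1 had 0.73 (0.67) and Nqo1 with Cat had 0.62 (0.48). The correlation of Nfe2l2 and Cat was 0.89 in brainstem and 0.90 in striatum, but 0.27 in cerebellum and 0.20 in cortex. A further 3 pairs were Hmox1 with Srxn1 at 0.61 (0.41 without those libraries), Srxn1 with Sod2 at 0.52 (0.37) and Gclm with Txnrd1 at 0.52 (0.51). The lowest was Gclc with Sod2 at -0.28.

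Measured the same way against the whole table, the gene most like Cat was S100b, an astrocyte marker, with r = 0.87 (0.81 without the high-score libraries), and the gene most like Nfe2l2 was Cd9, a tetraspanin, with r = 0.90 (0.87). Srxn1 was closest to Ldhb, a subunit of lactate dehydrogenase (0.80, or 0.69 without those libraries), and Nqo1 to Abhd5 (0.81). For Sod2 it was Msantd4 (0.83), for Hmox1 Gm5512 (0.78), for Txnrd1 Lrrc1 (0.74), for Gclc Cep57 (0.73) and for Gclm Foxn3 (0.69).

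To place the 10 genes within their pathway, 6 lists of further genes were examined, 101 genes in all, of which 94 were in the table. In SCA3 against wild-type, 2 of the 94 were called in brainstem (2.13%), 0 in cerebellum, 1 in cortex (1.06%) and 16 in striatum (17.0%), beside 1.92%, 0.0647%, 0.154% and 7.54% of all genes. In striatum 3 rose and 13 fell, where 2.07% of all genes rose and 5.47% fell. The striatal count moved with the share of all genes called. It was 8 without the libraries of high thalamic score (2.47% of all genes), 4 with the striatal libraries fitted alone (0.711%) and 0 in the largest series of mouse numbers (0.242%). That series had SCA3 striatal libraries from mice 9083514 and 9083515 only. Without mouse 7267056 the striatal count was 9 (2.43%), without mouse 7267054, 7267059 or 9083515 it was 10 (2.4% to 3.86%), without mouse 9083371 it was 26 (13.3%) and without mouse 9082857 it was 29 (14.8%). At an unadjusted p below 0.05 there were 16, 2, 8 and 43 of the 94 in brainstem, cerebellum, cortex and striatum (13.3%, 1.66%, 4.07% and 23.2% of all genes), and DESeq2 called 0 in cerebellum as well (0.0808% of all genes).

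Among 12 genes of NRF2 control, 1 rose in brainstem, 1 rose in cortex and none fell in any region. The gene called in brainstem was Keap1, which encodes the inhibitor of NRF2. It ranged from 59.5 to 67.1 CPM (median 64.2) in wild-type brainstem and from 69.0 to 84.6 CPM (median 72.6) in SCA3 brainstem, so that the groups did not overlap, as for 1.38% of all genes. The log2 fold change was 0.20 (SE 0.06, FDR = 0.026 by edgeR). It was 0.15 with FDR = 0.36 without the libraries of high thalamic score, and missed the threshold with RNA integrity as a covariate (FDR = 0.092), in the largest series of mouse numbers (FDR = 0.069) and without any 1 of mice 7267054, 7267059, 9083371, 9083514 and 9083515 (FDR = 0.054 to 0.29). Nfe2l3, a relative of Nfe2l2, was the gene called in cortex, with 4.49 to 6.36 CPM (median 5.65) in wild-type and 5.79 to 11.0 CPM (median 9.60) in SCA3. All but the SCA3 library of mouse 9082853 lay above the wild-type range. Its log2 fold change was 0.72 in cortex (SE 0.16, FDR = 0.006), 0.48 in brainstem (FDR = 0.059), 0.41 in cerebellum (FDR = 1.0) and 0.34 in striatum (FDR = 0.17). Without the libraries of high thalamic score it was called in brainstem (0.55, FDR = 0.02) and striatum (0.60, FDR = 0.0049) as well as in cortex (0.71). With each region fitted alone and the thalamic score as a covariate it was called in all 4 regions, at 0.45 to 0.72. Over the 26 alternatives it was called in cortex in 22, in brainstem in 8, in striatum in 2 and in cerebellum in 1. It missed the threshold in cortex without mouse 7267056 (FDR = 0.07), with limma-voom (FDR = 0.21, or 0.34 with the mouse as a block) and in the largest series of mouse numbers (FDR = 0.44).

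Slc7a11, the cystine carrier that supplies cysteine for glutathione, was the only list gene that fell in brainstem. Its wild-type brainstem values were 39.9 to 104 CPM with a median of 52.0, and the SCA3 values were 24.8, 25.2, 25.3, 27.7, 33.4 and 42.4 CPM. Only the SCA3 library of mouse 9083514 reached into the wild-type range. The log2 fold change was -0.96 (SE 0.18, FDR = 7e-05), 1.94-fold lower in SCA3, and it stayed called without the libraries of high thalamic score (log2 -1.08) and without any single mouse. In the largest series of mouse numbers alone it was -0.65 with FDR = 0.094. In cerebellum, cortex and striatum it was -0.35, -0.16 and -0.37, none of them called, and the test of a difference between regions did not call it either. With the cerebellar libraries fitted alone it was called there too (-0.35, FDR = 0.022, and -0.31, FDR = 0.015 with the thalamic score as a covariate). The part of the lower astrocyte markers of these SCA3 brainstem libraries in its values was not tested.

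In striatum, 7 of the 25 measured glutathione genes fell and none rose (28.0% called, beside 7.54% of all genes, of which 5.47% fell and 2.07% rose), and 22 of 25 point estimates were below 0 with a median log2 fold change of -0.26, beside 0.00 over all genes. Without the libraries of high thalamic score 4 of the 7 stayed called (Gstm7, Gsto1, Gstp1 and Gstt1) and Chac1, Ggct and Mgst3 did not, with 22 of 25 point estimates below 0 and a median of -0.15. As for all lists, the count moved with the share of all genes called. With the striatal libraries alone 3 were called (0.711% of all genes), with the thalamic score added to that fit 2 (Gstm7 and Gstp1, 0.655%) and in the largest series of mouse numbers 0 (0.242%), whereas 13 were called without mouse 9082857 (14.8%) and 11 without mouse 9083371 (13.3%). Cell type and region markers moved in the same libraries. In SCA3 striatum 12 of 12 markers of mature oligodendrocytes (6 called, median log2 fold change -0.58), 11 of 12 of astrocytes (5 called, -0.31) and 10 of 10 of thalamus (5 called, -1.42) had lower point estimates, and 9 of 9 striatal markers had higher ones (0 called, 0.47). The summed thalamic markers were 198 to 431 CPM in SCA3 against 201 to 2350 CPM in wild-type, and the striatal ones 5470 to 8080 against 2030 to 8950 CPM. Their part in the striatal values of the pathway genes was not tested. Gstp1, a glutathione S-transferase with a near-identical neighbour from which reads may be lost, had 67.3 to 85.8 CPM (median 83.2) in wild-type striatum and 58.4, 60.8, 61.5, 62.2 and 64.2 CPM in SCA3. The genotypes did not overlap, as for 0.655% of all genes, and the log2 fold change was -0.40 (SE 0.07, FDR = 5.7e-06). Gstt1, another transferase, had 6.43 to 10.6 CPM in wild-type and 5.41, 5.60, 5.76, 6.01 and 6.37 CPM in SCA3 striatum, a log2 difference of -0.59 (SE 0.10, FDR = 2.3e-06). Gsto1, the omega-class transferase, fell by 0.52 on the log2 scale (SE 0.11). Without the libraries of high thalamic score, Gstp1, Gstt1 and Gsto1 had log2 fold changes of -0.38, -0.57 and -0.50 in striatum and stayed called, but with the striatal libraries alone and the thalamic score as a covariate Gstt1 (-0.48, FDR = 0.051 by edgeR) and Gsto1 (-0.36, FDR = 0.52) were not.

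**Figure D5:**
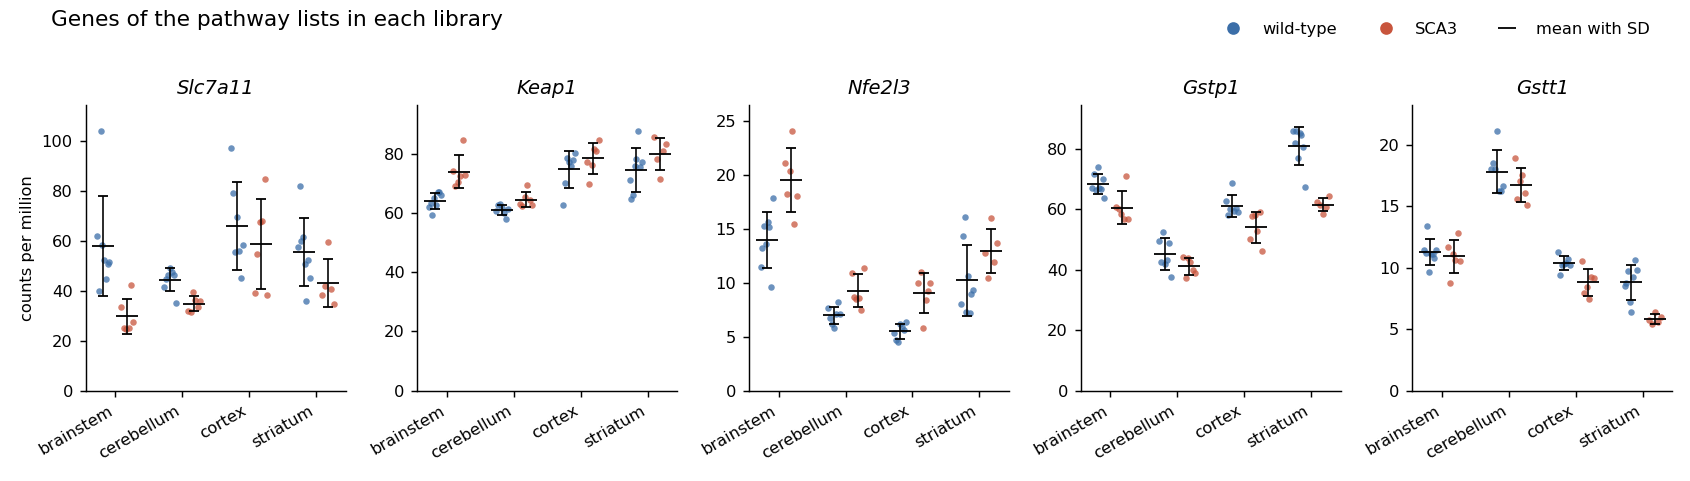
CPM (linear axis from 0) of Slc7a11, Keap1, Nfe2l3, Gstp1 and Gstt1 in each library by region, wild-type in blue and SCA3 in red, with the mean and SD in black. Slc7a11 in brainstem lies at 24.8 to 42.4 CPM in SCA3 and 39.9 to 104 CPM in wild-type, and Gstp1 in striatum at 58.4 to 64.2 and 67.3 to 85.8 CPM.

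The other striatal calls were spread over the lists. Among 25 genes of thioredoxins, peroxiredoxins and repair, the sestrins split, since Sesn1 and Sesn3 rose (log2 fold changes 0.19 and 0.37) and Sesn2 fell (-0.55), and the thioredoxin reductase gene Txnrd3 fell (-0.52). Of 15 genes that supply NADPH, the reductant used by NQO1 and the reductases, Me3 rose (0.44) and Tkt and Aldh1l1 fell (-0.38 and -0.34). Aldh1l1 is also an astrocyte marker. Of 7 genes of superoxide handling and metal binding, the metallothionein gene Mt3 fell (-0.35), and of 10 genes of haem and quinone handling, Aifm2 fell (-0.40). With the striatal libraries fitted alone, Mt3 was the only 1 of these 9 genes still called (Sesn2 had FDR = 0.15 and Tkt 0.075), and in the largest series of mouse numbers none was. Without the libraries of high thalamic score, Sesn1, Sesn3, Txnrd3, Me3, Aldh1l1 and Aifm2 missed the threshold. With limma-voom, Aifm2 missed it with and without the mouse as a block, and Txnrd3 missed it with the block. Sesn1, Sesn3, Me3 and Aifm2 each missed it without any 1 of mice 7267054, 7267056, 7267059, 9083373 and 9083515 (FDR = 0.051 to 0.14), as did some of them without mouse 7267055, 7267058, 9083372 or 9083514, and Txnrd3 did without mouse 7267056 (FDR = 0.051).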

How the data were processed

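The deposited values are unnormalised whole-number counts for each gene and library. They prepared poly-A libraries without strand information, aligned trimmed reads to GRCm38 with STAR 2.3.0e keeping unique alignments, counted them per RefSeq gene with HTSeq 0.6.1 and kept genes averaging above 4 CPM, which left 12372 genes with a lowest mean of 4.07 CPM. Without strand, overlapping genes cannot be separated, but no exon of a member overlapped another gene in the GENCODE annotation. Exon lengths were taken from the same annotation and matched for 99.61% of genes, whereas reads were counted per RefSeq gene.

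Differential expression was tested here with edgeR 4.0.16 (R 4.3.3) after TMM normalisation, by a likelihood ratio test in a single negative binomial fit of all 53 libraries in 8 groups of region and genotype, as in the study's methods. Calls were made at an FDR of 0.05 (Benjamini-Hochberg, over all genes), and 95% intervals are 1.96 SE either way. CPM were computed on library totals scaled by TMM, and 2 was the prior count for logs. Mice were taken as replicates, and libraries of the same mouse were paired across regions, with a mean correlation of deviations of 0.0904 to 0.186 and a consensus correlation of 0.14. The 10 genes, the pathway and marker lists and the naming rule (members, up to 4 called genes per list by the joint test, and for each member the 1 gene most like it, which for Sod1 is not reported here) were chosen with earlier results of these data known. Alternatives used DESeq2 1.42.0, limma 3.58.1, other scaling, a filter of at least 10 counts in every library, RNA integrity or mouse number series as covariates, a mouse block, a region alone, and each mouse left out.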

Additional observations from a re-analysis of the deposited data

Results flagged for a closer look

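In 6 of 80 groups (10 genes, 4 regions, 2 genotypes) 1 library lay far from the others by Dixon's test, which chance does in about 1 of 20 groups. All 6 were high values. Nfe2l2 reached 30.4 CPM in the SCA3 cortex of mouse 9083514 (next 23.5 CPM), 34.1 CPM in the SCA3 striatum of mouse 9082853 (next 25.2) and 37.9 CPM in the wild-type striatum of mouse 7267059 (next 28.6). The same SCA3 striatal library of mouse 9082853 had 171 CPM of Sod2 (next 142), and the same wild-type striatal library of mouse 7267059, which has the highest thalamic marker score of the striatal libraries, had 131 CPM of Srxn1 (next 104). Gclm reached 39.3 CPM in the SCA3 cortex of mouse 7267056 (next 32.9). The part of the thalamic score in these values was not tested.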

How the results depend on the processing

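The count of 0 members called between genotypes was the same in each of the 4 regions under every alternative that could be fitted there, and so were the joint test and the test between regions. Of the 40 log2 fold changes, 21 turned sign under at least 1 alternative, all of them at most 0.12 in size and none of them called. The widest interval over the alternatives with a standard error reached 1.5-fold, in the largest series of mouse numbers alone. Joint tests have no value with a region alone, and the mouse as a fixed block, which is nested in genotype, gave values only for the test between regions and the wild-type pairs. With the mouse as replicate block, limma-voom called 0 members between genotypes, and limma-voom and edgeR each called 42 of 60 wild-type tests, the same numbers as without the block. Leaving out single mice gave 40 to 42 of 60, 39 remained in number without the libraries of high thalamic score and 35 in the largest series of mouse numbers, both chosen after seeing the data. In the largest series, 65.3%, 54% and 57.7% of all genes were called for cerebellum, cortex and striatum against brainstem. The main fit called 72.6%, 65.4% and 64.2%. For striatum against cortex the shares were 10.9% and 34.4%. Without the libraries of high thalamic score these 4 shares were 73.2%, 65.9%, 67.8% and 34%. Among the list genes, 16 in striatum (7.54% of all genes) and 2 in brainstem (1.92%) were called. Limma-voom with the mouse block called 12 (5.76%) and 4 (2.05%), DESeq2 23 (9.39%) and 4 (2.49%), the region alone 4 (0.711%) and 4 (3.17%), the region with the thalamic score 5 (0.655%) and 8 (5.72%), and leaving out single mice gave 9 to 29 and 1 to 7. The causes of these shifts were not tested. The design had 5 to 8 mice per group, so differences within the intervals may have gone undetected. A call also needed an FDR below 0.05 over all genes, for which the intervals are not adjusted. Cat in brainstem, with an interval of -0.40 to -0.04, was not called (FDR = 0.24 by edgeR).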
